A study of Caenorhabditis elegans with 2 samples.

Results

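The genes described here are 9 components of the C. elegans insulin and AMPK pathways (daf-2, age-1, pdk-1, akt-1, akt-2, sgk-1, daf-18, daf-16 and aak-2), out of 19973 protein-coding genes in the annotation. They were listed by name for their place in the pathways, with earlier results of these data known, and each was examined from its last base to 5000 bp upstream of its 5′ end for binding of SUP-37. ChIP-seq, in which DNA precipitated with a tagged protein is sequenced, mapped this binding in whole L1 larvae, the first larval stage, which had been starved after bleaching and were 6 hours old. There was 1 group, with 2 biological replicates and no contrasting condition. The worms were of strain OP611, which has the unc-119(tm4063) mutation and the integrated transgene wgIs611, and both sexes were pooled. That transgene holds a tagged gene, sup-37::TY1::EGFP::3xFLAG, together with a working copy of unc-119. The strain is a single transgenic line. Precipitation is described as done with an antibody against GFP, while another label of the same samples gives sup-37. Whole animals were used, so a region may be bound in few tissues or in many.

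Insulin-like peptides act on the receptor DAF-2, and the signal passes through the PI3 kinase AGE-1 and the kinases PDK-1, AKT-1 and AKT-2 to keep the FOXO transcription factor DAF-16 out of the nucleus. SGK-1 is a related kinase that is also activated through PDK-1. DAF-18 is a phosphatase that works against AGE-1. Starved L1 larvae halt development, a state known to need DAF-18 and DAF-16, and AAK-2, a catalytic subunit of the energy sensor AMPK, is also known to help them survive it. Gene activity was not measured here, so the values below are positions and strengths of binding only.

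Sequence is shown for 5 summits at 4 of the genes, because these regions carry the results described below. A summit is the position of the highest signal in a region. Each run is the forward strand of build ce11 (WBcel235) from 50 bp before the summit to 50 bp after it, with 1-based positions, and capitals mark matches to the motifs searched. The daf-2 (chrIII:3036905-3037005), pdk-1 (chrX:1319911-1320011) and first aak-2 (chrX:16796913-16797013) runs are the summits of IDR peaks, that is, peaks kept by the authors after thresholding on the irreproducible discovery rate. The second aak-2 run (chrX:16799053-16799153) is a region listed in replicate 2 and not in replicate 1. The akt-2 run (chrX:14146884-14146984) is the strongest pooled region in a promoter of these genes, with promoters taken from the 5′ end of the gene.
daf-2: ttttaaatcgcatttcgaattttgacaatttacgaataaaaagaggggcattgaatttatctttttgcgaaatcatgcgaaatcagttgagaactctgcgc
pdk-1: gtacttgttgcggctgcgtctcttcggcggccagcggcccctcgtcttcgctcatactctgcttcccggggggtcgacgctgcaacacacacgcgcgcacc
aak-2 first: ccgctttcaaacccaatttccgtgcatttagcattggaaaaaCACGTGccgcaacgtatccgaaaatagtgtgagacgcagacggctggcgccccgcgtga
aak-2 second: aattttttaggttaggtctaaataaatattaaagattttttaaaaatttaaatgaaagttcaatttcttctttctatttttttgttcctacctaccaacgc
akt-2: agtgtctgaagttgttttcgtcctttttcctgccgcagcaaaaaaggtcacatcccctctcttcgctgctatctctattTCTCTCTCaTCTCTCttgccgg

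The authors deposited 4 lists of regions: 30000 for each replicate, 30000 for the pool of both, and the 924 IDR peaks, which match the top 924 regions of the pool. Regions were ranked within each list by the authors' signal, a value whose scale is not stated and whose median differs between lists (36.0 in replicate 1, 23.8 in replicate 2 and 52.8 in the pool). A rank of 1 is the strongest. The full lists hold background as well as peaks by their own description, so a low-ranking region is not by itself evidence of binding. Read counts are not part of these lists, which leaves library depth unknown.

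SUP-37 IDR peaks lay in or upstream of 4 of the 9 genes, with 2 at daf-16 and 1 each at daf-2, pdk-1 and aak-2. Of these 5 summits 4 were in introns and 1 was upstream, farther than a promoter. Neither age-1, akt-1, akt-2, sgk-1 nor daf-18 had one. The share with an IDR peak was thus 44.4% (95% exact binomial interval 13.7 to 78.8, counting error only), where 7.76% of all protein-coding genes had one. Long genes offer more room, and the median window of the 9 genes was 12.3 kb against 7.0 kb for all protein-coding genes. Among the 1777 protein-coding genes with a window at least as long as that median, 13.3% had an IDR peak. The difference was not tested, because the genes were chosen with results of these data known. With the 924 strongest regions of a single replicate in place of the IDR list, 3 genes had one in replicate 1 (daf-2, daf-16 and aak-2) and 2 in replicate 2 (daf-16 and aak-2). The share of all protein-coding genes was not computed for single replicates, so these counts have no background beside them. Among the 462 strongest IDR peaks no gene of the 9 had a peak. The share of all protein-coding genes with a peak among those 462 was not computed. It cannot exceed the 7.76% of the full list, or 13.3% for genes with long windows. The absence among 9 genes therefore cannot be set apart from background.

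**Figure D1:**
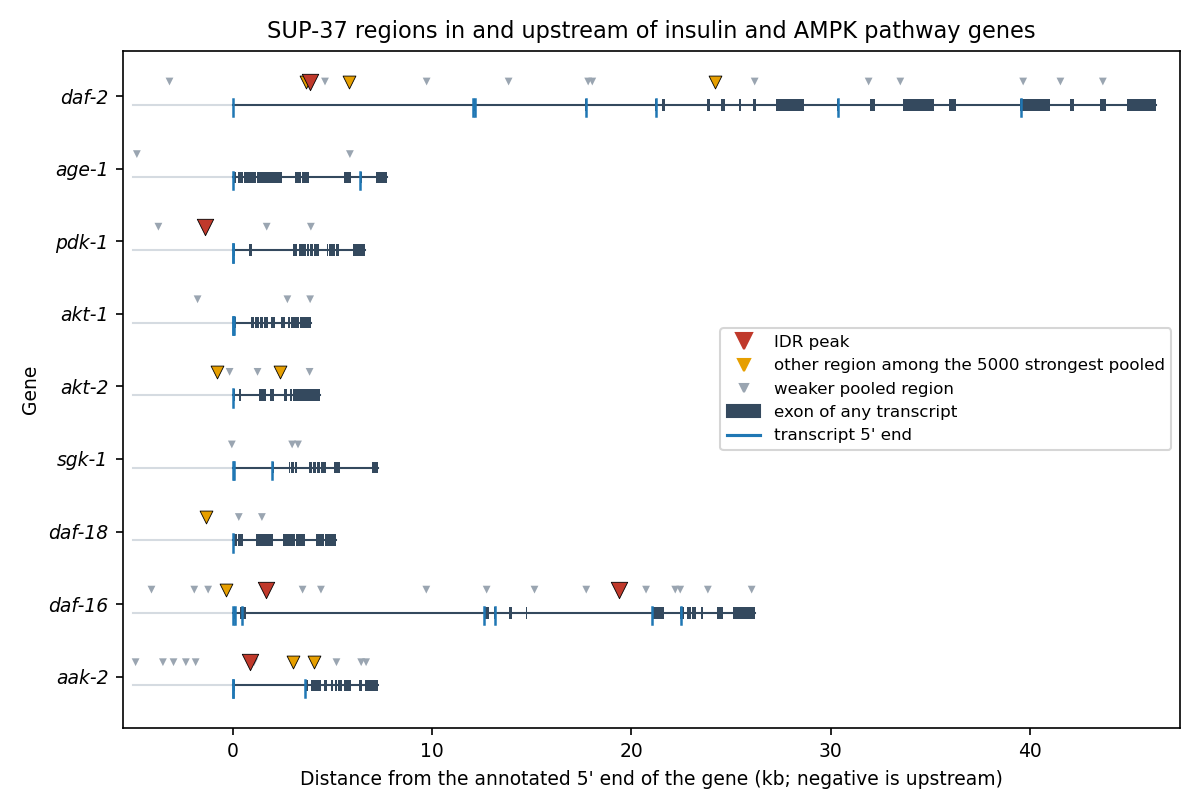
Pooled SUP-37 regions (triangles) along each of the 9 genes, plotted by distance of the summit from the annotated 5′ end of the gene in kb, with exons of any transcript as blocks and transcript 5′ ends as blue ticks. Large red triangles are the 5 IDR peaks, mid-sized orange ones the other regions among the 5000 strongest pooled and small grey ones weaker regions. The red triangles at daf-2, daf-16 and aak-2 stand over long introns and that of pdk-1 stands upstream of the gene.

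By position, none of the 5 IDR summits lay in a promoter. The nearest to the 5′ end of its gene was that of aak-2, 876 bp downstream. A promoter was taken as 1000 bp upstream to 200 bp downstream of the 5′ end, a distal summit as one farther upstream, and an intron as sequence in no exon of any transcript of the gene. None of the 9 genes had an IDR summit in its promoter (0%, upper bound 33.6). There 3.44% of all protein-coding genes had one, and 4.05% of those with windows of at least 12.3 kb. A count of 0 among 9 genes cannot be set apart from these shares. Taking the 5′ ends of all annotated transcripts left this count at 0. A window of 2000 bp upstream to 500 bp downstream gave 1 gene, pdk-1. Introns held an IDR summit in 3 of the 9 (33.3%, 7.49 to 70.1), against 0.806% of all protein-coding genes and 4.95% of those with windows of at least 12.3 kb. A distal summit was found at 1 of the 9, against 3.84% of all protein-coding genes. Many C. elegans messages are trans-spliced, so an annotated 5′ end can lie downstream of where transcription begins.

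**Figure D2:**
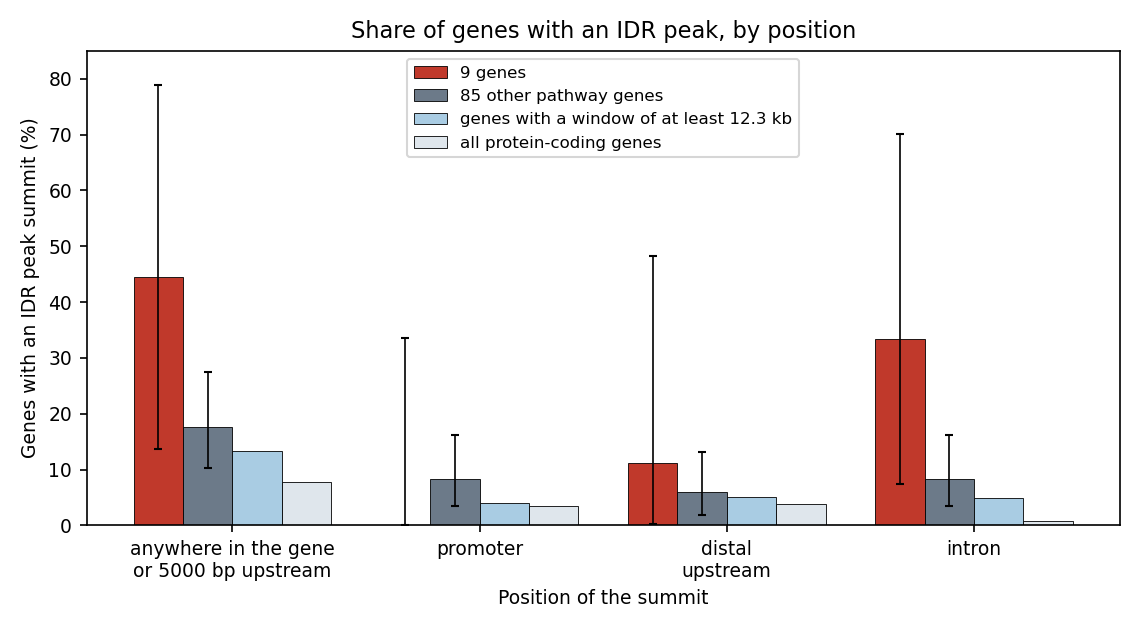
Percentage of genes with an IDR summit (vertical axis) by its position (horizontal axis), for the 9 genes, 85 other pathway genes, protein-coding genes with a window of at least 12.3 kb and all protein-coding genes. Error bars are exact binomial 95% intervals for counting error. The bars of the 9 genes are highest in the anywhere and intron classes (44.4% and 33.3%), with wide intervals, and stand at 0 for promoters.

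The receptor gene daf-2 (WBGene00000898, chromosome III, 2994514 to 3040846, minus strand) spans 46333 bp and had its IDR peak in its long first intron. Its IDR peak (3036763 to 3037146) had its summit 3891 bp downstream of the 5′ end, in intron 1 of transcript Y55D5A.5c.1, which is 11981 bp long. The other 6 of its 7 transcripts begin farther downstream, the nearest (Y55D5A.5a.1) at 8155 bp from the summit. The summit also lay inside linc-143, a long intergenic RNA gene annotated on the same strand. It ranked 869 in the pool (signal 120), 1590 in replicate 1 (60.8) and 1848 in replicate 2 (41.9), outside the top 924 regions of both. In the peak 7.93% of 32-base words had another copy in the genome. The 101 bp around the summit had a GC content of 33.7%, below the lower quartile of 43.6% over all IDR summits.

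A neighbouring region of the same intron, 5828 bp downstream of the 5′ end, was the strongest of daf-2 in replicate 1. It ranked 778 there (signal 74.9), 6848 in replicate 2 (29.6) and 1111 in the pool (107), which placed it below the IDR peaks. Replicate 1 thus put its strongest daf-2 region in one place and replicate 2 in another, the IDR peak. Another intronic region, 24216 bp downstream, was of rank 2323 in the pool and went the other way, with ranks of 12245 in replicate 1 and 2920 in replicate 2. No region of the pooled or either replicate list lay in the promoter of daf-2, taken from the 5′ end of the gene.

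The gene pdk-1, which encodes the kinase that activates the AKT proteins, had an IDR peak upstream. It (WBGene00003965, chromosome X, 1321344 to 1327986) had the peak at 1319769 to 1320152, with the summit in intergenic sequence 1383 bp upstream of its 5′ end and no other protein-coding 5′ end nearer. Its rank was 851 in the pool (signal 121), 1447 in replicate 1 (62.4) and 1115 in replicate 2 (50.5). Both replicates placed the summit within 13 bp of the pooled one, though neither ranked it among its 924 strongest. The 101 bp around the summit, printed above, had a GC content of 67.3%, above the upper quartile of 53.5% over all IDR summits. A second region, in an intron 1713 bp downstream of the 5′ end, ranked 2329 in replicate 2 and had no counterpart within 200 bp in replicate 1.

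The gene of the second AKT kinase, akt-2 (WBGene00000103, chromosome X, 14147700 to 14152070), had the highest promoter region of the 9 genes but no IDR peak. This holds for promoters at the 5′ end of the gene. With the 5′ ends of all transcripts, the aak-2 region of pooled rank 1867 would come first. The akt-2 summit 766 bp upstream of the 5′ end ranked 2026 in the pool (signal 86.7), 6748 in replicate 1 (44.2) and 1278 in replicate 2 (47.6). The summit of replicate 2 was 142 bp from the pooled one. An intronic region 2394 bp downstream differed in the same direction, with a rank of 20035 in replicate 1 and 3223 in replicate 2. For akt-1 (WBGene00000102, chromosome V, 10248905 to 10252845) the strongest regions of the replicates lay apart. In replicate 1 it was 1753 bp upstream (rank 2562) with no counterpart in replicate 2, and in replicate 2 it was 154 bp downstream of the 5′ end (rank 5000) with no counterpart in replicate 1.

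In the pool the lowest ranks belonged to age-1 and sgk-1. The PI3 kinase gene age-1 (WBGene00000090, chromosome II, 11519328 to 11527054) had 2 pooled regions, the stronger of rank 6837 and 4797 bp upstream, where mdt-8 has the nearer 5′ end. That region ranked 3186 in replicate 1 and was not listed in replicate 2. The kinase gene sgk-1 (WBGene00004789, chromosome X, 16254842 to 16262122) had its strongest pooled region 35 bp upstream of the 5′ end, at rank 12554. It ranked 10848 in replicate 1, and replicate 2 listed no region anywhere in the gene or its 5000 bp upstream.

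For daf-18 (WBGene00000913, chromosome IV, 420011 to 425177), the strongest pooled region lay nearer to another gene and ranked far apart in the replicates. It was 1339 bp upstream of daf-18 and 348 bp downstream of the 5′ end of garr-1, and ranked 3022 in the pool (signal 78.4). Replicate 1 placed it at rank 1335 (63.5) and replicate 2 at rank 28748 (18.8), near the foot of its list. The strongest region of replicate 2 was elsewhere, in an intron 4087 bp downstream of the 5′ end (rank 8192).

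The FOXO gene daf-16 had 2 IDR peaks, and each was better supported by a different replicate. The gene (WBGene00000912, chromosome I, 10750498 to 10776703) spans 26206 bp and has 11 annotated transcripts with 7 different 5′ ends. Its stronger peak (10769705 to 10770088) had the summit 19399 bp downstream of the 5′ end, in a 7676 bp intron of 9 of the transcripts. The remaining 2 begin farther on, the nearer (R13H8.1a.1) 1611 bp past the summit, and the noncoding RNA gene R13H8.5 lay 191 bp away. It ranked 628 in the pool (signal 141), 1113 in replicate 1 (66.6) and 475 in replicate 2 (74.4).

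The other daf-16 peak (10751989 to 10752372) had its summit 1683 bp downstream of the 5′ end, in an intron of 12401 bp carried by 5 of the 11 transcripts. Its rank was 694 in the pool (signal 134), 539 in replicate 1 (88.0) and 1256 in replicate 2 (48.0), so the order of the daf-16 peaks was opposite in the replicates. In the daf-16 promoter a region 343 bp upstream of the 5′ end ranked 4058 in the pool, 11846 in replicate 1 and 10069 in replicate 2. Farther upstream, at 2011 bp, replicate 2 had a region of rank 1425, where that of replicate 1 ranked 29783.

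The AMPK gene aak-2 (WBGene00020142, chromosome X, 16796087 to 16803398) had an IDR peak in its first intron and a second, weaker region farther along the same intron. The peak (16796771 to 16797154) had its summit 876 bp downstream of the 5′ end, in intron 1 (3475 bp) of transcripts T01C8.1a.1 and T01C8.1b.1. It lay 2744 bp before the 5′ end of T01C8.1c.1 and 152 bp from the noncoding RNA gene T01C8.9. Its rank was 701 in the pool (signal 134), 437 in replicate 1 (96.0) and 1809 in replicate 2 (42.2), there with the summit 136 bp from the pooled one. Replicate 2 instead ranked highest a region with its summit 3056 bp downstream (rank 793, signal 58.2), which replicate 1 did not list and which ranked 1867 in the pool. That second region falls within 1000 bp upstream of the 5′ end of T01C8.1c.1. Its GC content was 21.8%, where the lower quartile over all IDR summits, of which it is not one, was 43.6%. Regions outside the IDR list were not measured as a set. A coding exon region 4094 bp downstream did the reverse, with rank 3292 in replicate 1 and no region in replicate 2.

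**Figure D3:**
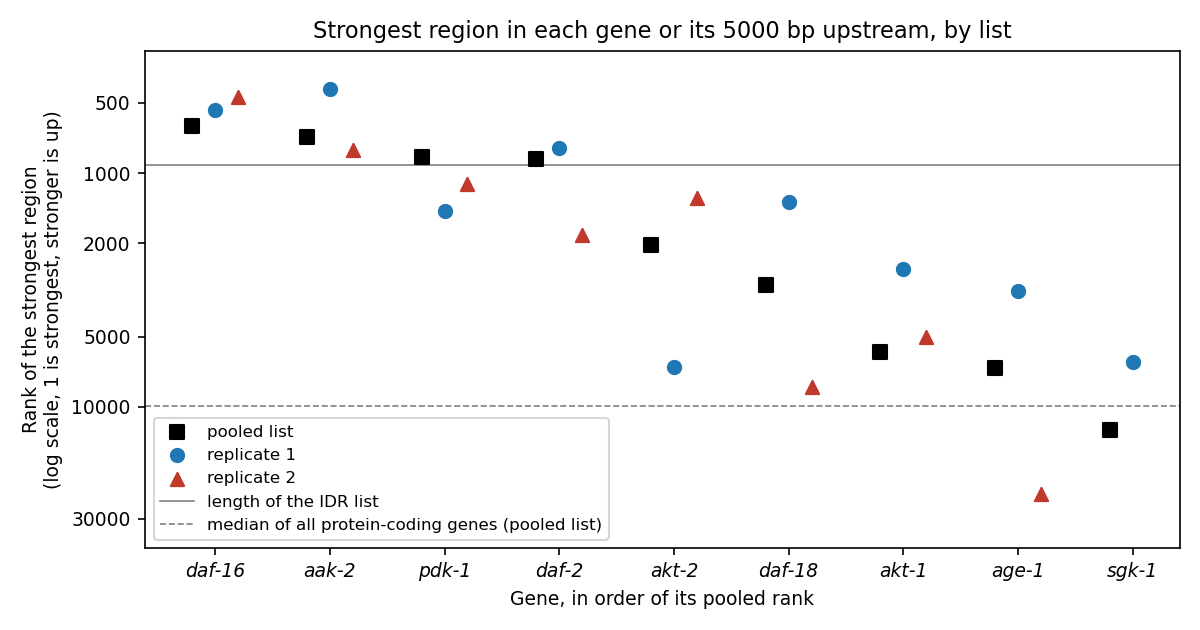
Rank of the strongest region in each gene or its 5000 bp upstream (log scale, stronger upward), for the pooled list (squares), replicate 1 (circles) and replicate 2 (triangles), with genes in order of pooled rank. The solid line marks the length of the IDR list, 924, and the dashed line the pooled median of all protein-coding genes, 9871. Squares of daf-16, aak-2, pdk-1 and daf-2 lie above the solid line, and sgk-1 has no triangle because replicate 2 listed no region there.

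By their strongest pooled region the genes stood in the order daf-16 (rank 628), aak-2 (701), pdk-1 (851), daf-2 (869), akt-2 (2026), daf-18 (3022), akt-1 (5804), age-1 (6837) and sgk-1 (12554). The same pair, daf-16 and aak-2, led in both replicates, and the order otherwise differed between the lists. Replicate 1 placed aak-2 first and akt-2 last, while replicate 2 placed daf-16 first and akt-2 ahead of daf-2. The median of these ranks was 2026 for the 9 genes, against 4362 for protein-coding genes with windows of at least 12.3 kb and 9871 for all protein-coding genes. Among the 5000 strongest pooled regions at least 1 lay in the windows of 6 of the 9 genes (66.7%, 29.9 to 92.5), where 30.0% of all protein-coding genes and 54.1% of those with windows of at least 12.3 kb had one. In promoters this held for 2 of the 9 (akt-2 and daf-16), against 9.55% of all protein-coding genes.

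All 5 IDR peaks of these genes lay below the 462 strongest, at ranks of 628 to 869 of 924 and signals of 120 to 141, where the whole list runs from 116 to 933. The −log10 of the authors' q value was 1.61 to 2.25 at these peaks. The nearest region outside the IDR list was that of daf-2 at rank 1111, with a −log10 q of 1.11, and the next was that of aak-2 at rank 1867, with 0.62. For none of the 5 did both replicates have a region in their top 924 with its summit at most 200 bp away. In replicate 1 alone 2 did, in replicate 2 alone 1 did, and in neither the peaks of daf-2 and pdk-1. In the top 5000 regions of the replicates all 5 were found in both. The share of other IDR peaks was not computed at that depth, so this is not particular to the 5. In the full replicate lists 903 of all 924 IDR peaks were found in both. Over the 242 IDR peaks of ranks 628 to 869 the share found in the top 924 of both replicates was 20.2% (15.4 to 25.9), and 7.85% were found in neither. The count of 0 among 5 peaks (0%, upper bound 52.2) cannot be set apart from that 20.2%. 

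**Figure D4:**
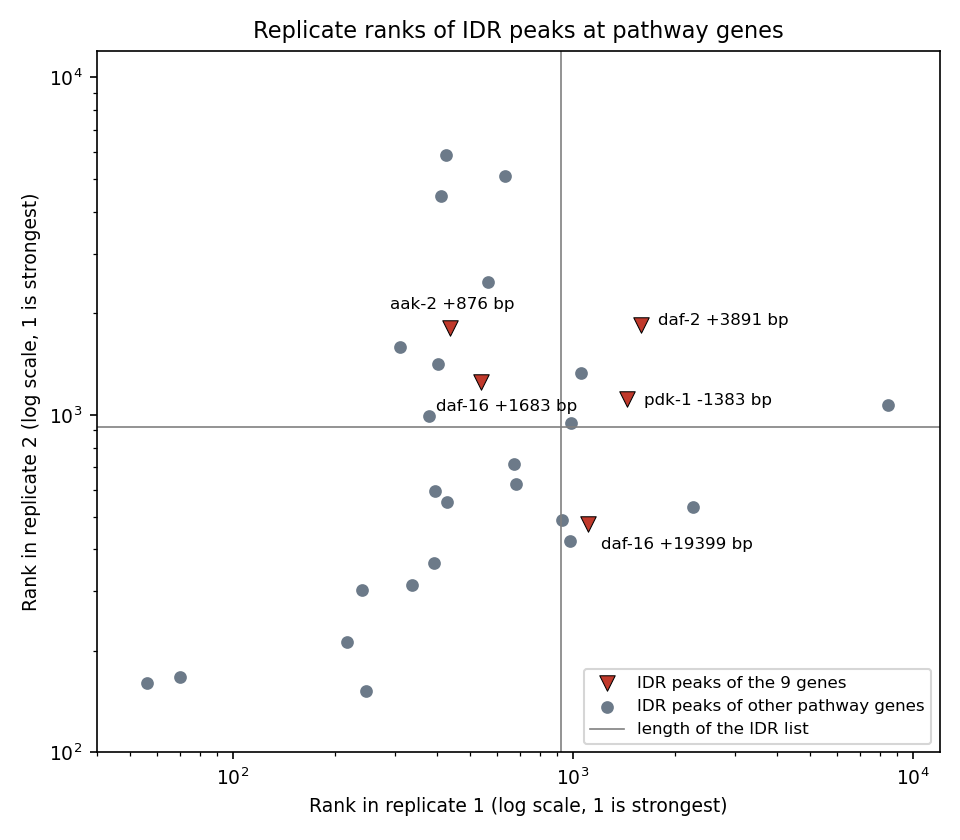
Rank in replicate 1 (horizontal) and replicate 2 (vertical) of IDR peaks, both on log scales with 1 the strongest, for the 5 peaks of the 9 genes (red, labelled by distance of the summit from the 5′ end) and the 24 peaks of other pathway genes (grey). Grey lines mark 924, the length of the IDR list. No red point lies in the lower left field, where both ranks are better than 924, while 11 grey points do. Of all 924 IDR peaks, not plotted, 62.6% had a region in the top 924 of both replicates. Among the 242 of ranks 628 to 869, the range of the red points, 20.2% did.

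The pooled list had 65 regions in the 9 windows, of which 31 were intronic, 14 distal, 13 in coding exons, 4 in promoters and 3 in untranslated exon sequence. Shares of these classes over all pooled regions were not computed, so the counts show no preference for a class. Of the 160.0 kb of windows, daf-2 takes 51.3 kb and daf-16 31.2 kb, and they held 12 and 11 of the intronic regions. Within 200 bp of the pooled summit 30 of the 65 had a region in both replicates and 5 had none, while 16 had one in replicate 1 alone and 14 in replicate 2 alone. The share in both was 46.2% in these windows, against 34.1% of all 30000 pooled regions, and the share in neither was 7.69%, against 7.70%. These differences were not tested. Per megabase the windows held 406 pooled regions, against 299 over the genome, and 31.3 IDR peaks, against 9.21. The IDR figure rests on 5 peaks. The replicates differed, with 331 regions per megabase in replicate 1 and 463 in replicate 2, each against 299. Among the genes the pooled density ranged from 157 per megabase at age-1 to 975 at aak-2. At aak-2 5 of its 12 pooled regions were upstream, where got-1.2 has its 5′ end nearer to each of them.

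Short motifs were searched in the sequence around the summits. The motifs searched on both strands within 50 bp of the summit were GTAAACA (the DAF-16 binding element, the reverse complement of the forkhead core), CTTATCA (the DAF-16 associated element, the reverse complement of a GATA core), the E-box CACGTG and the repeat GAGAGA, so that 4 were distinct. Neither GTAAACA nor CTTATCA was present at any of the 14 summits of these genes among the 5000 strongest pooled regions. Both were rare among all IDR summits (1.52% and 0.325% of 924). Their absence at 14 summits is near those shares and is not a result about these genes. Of the 14 summits 9 are not IDR peaks. CACGTG occurred once, in the first aak-2 run, where it ends 3 bp before the summit, and 5.95% of IDR summits held it. GAGAGA was found at both daf-16 peaks, in runs of overlapping copies, and at the akt-2 promoter region, where it reads TCTCTC on the forward strand. It was present at 27.6% of IDR summits. Among the 14 summits the matches to CACGTG and GAGAGA are near those shares, and they are not a result about these genes. A match of letters is not evidence that a factor binds there.

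Of 87 further genes of the insulin, AMPK, TOR and starvation pathways, 85 were matched in the annotation and 15 had an IDR peak in the gene or its 5000 bp upstream (17.6%, 10.2 to 27.4). This list was drawn up with earlier results of these data known, and its count was not tested against the 7.76% of all protein-coding genes. The median window was 8.6 kb in this list. Promoter summits were found at 7 (8.24%, against 3.44% of all protein-coding genes) and intronic ones also at 7 (8.24%, against 0.806%). Of protein-coding genes with windows of at least 12.3 kb, 4.05% had a promoter summit and 4.95% an intronic one. Windows of the genes with an intronic summit ran from 6.5 kb at mdl-1 to 41.7 kb at aakg-1. Distal summits were found at 5 (5.88%, against 3.84%) and a summit in a coding exon at 1. Among their 24 summits 9 (37.5%) were among the 462 strongest of the 924 IDR peaks. In the top 924 of both replicates were 11 (45.8%), where 62.6% of all IDR peaks were. That share depends on rank, at 20.2% for the IDR peaks of ranks 628 to 869. No share at the ranks of these 24 was computed, so the values do not show lower agreement between replicates.

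Close to the 9 genes in the pathway, the regulators of the kinases and the DAF-16 partners each had a single gene with an IDR peak. These counts, 1 of 7 and 1 of 10, are near the 7.76% of all protein-coding genes and are not a result about either group. Among 7 regulators of the kinases only pptr-1, which encodes a regulatory subunit of the PP2A phosphatase that acts on AKT-1, had an IDR peak, 1432 bp upstream of its 5′ end. That peak had IDR rank 360, with ranks of 390 in replicate 1 and 363 in replicate 2, higher than any peak of the 9 genes in the pool and in both replicates. Of 10 DAF-16 partners the gene with IDR peaks was ftt-2, which encodes a 14-3-3 protein that binds DAF-16 and holds it in the cytoplasm. It had promoter summits 683 bp upstream (rank 112, with 56 in replicate 1 and 161 in replicate 2) and 931 bp upstream (rank 602, with 401 and 1419). None of 3 receptor adaptor and PI3 kinase subunit genes and none of 15 genes of DAF-16 output had an IDR peak, counts too small to set apart from the same 7.76%.

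In the AMPK group 2 of 11 genes had IDR peaks, both encoding γ subunits. That is 18.2%, against 7.76% of all protein-coding genes and 13.3% of those with windows of at least 12.3 kb. A count of 2 is too small to set apart from these shares. In aakg-1, whose window is 41.7 kb long, the peaks were intronic, 18963 bp (rank 436) and 25575 bp (rank 726) downstream of the 5′ end. At aakg-3 the peak was 3798 bp upstream (rank 915). The aakg-1 peak of rank 436 ranked 427 in replicate 1 and 551 in replicate 2, and that of rank 726 ranked 410 and 4460. The aakg-3 peak ranked 1056 in replicate 1 and 1334 in replicate 2. In the TOR group 1 of 12 had a peak (8.33%, near the same 7.76%), rheb-1, the gene of a small GTPase that activates TOR, 318 bp upstream (rank 401), in a promoter where spk-1 has the nearer 5′ end at 260 bp.

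Transcription factors of the starvation response had the largest count among the groups, with 6 of 13 (46.2%), against 7.76% of all protein-coding genes and 13.3% of those with windows of at least 12.3 kb. Their median window, 12.3 kb, equalled that of the 9 genes. The bHLH factor gene mdl-1 had 4 IDR summits, 4531 bp upstream (rank 172), 1156 bp upstream (rank 384), 663 bp downstream in an intron (rank 635) and 85 bp upstream (rank 773), the first of them slightly nearer to R03E9.2. The gene hlh-30, whose product resembles mammalian TFEB and induces autophagy and lipase genes on fasting, had an intronic peak 10635 bp downstream (rank 468, with 310 in replicate 1 and 1595 in replicate 2). At mxl-3, a repressor of lipase genes, peaks lay 2800 bp upstream (rank 480) and in a coding exon 754 bp downstream (rank 854). Peaks were also found in an intron of skn-1, the NRF-like stress factor (3173 bp downstream, rank 768), at the promoter of crh-1, the CREB gene (387 bp upstream, rank 563), and at that of lin-35, a pocket protein gene (292 bp upstream, rank 217, nearer to vps-51).

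Among 14 matched genes of L1 arrest and dauer formation 4 had IDR peaks (28.6%), against 7.76% of all protein-coding genes and 13.3% of those with windows of at least 12.3 kb, which is also the median window of this group. These were daf-5, a Ski-like partner of the dauer SMAD proteins (intron, 11813 bp downstream, rank 119, with 70 in replicate 1 and 167 in replicate 2), and daf-14, a SMAD gene (intron, 1886 bp downstream, rank 245). The others were tps-2, which encodes a trehalose 6-phosphate synthase (2325 bp upstream, rank 519, and 710 bp upstream, rank 924), and the timing gene lin-14, with summits of ranks 713, 896 and 898. In the same order these lin-14 summits ranked 423, 986 and 633 in replicate 1 and 5875, 944 and 5108 in replicate 2. The tps-2 promoter peak is the last of the list and ranked 8443 in replicate 1 and 1071 in replicate 2.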

How the data were processed

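SUP-37 ChIP-seq was analysed from the deposited peak lists of 2 biological replicates in 1 group, numbered as in the labels. The authors' region calls on ce11, for each replicate and the pool, used 2 control alignments, per the deposited descriptions, and the IDR peaks derive from them. The sources used here do not name the caller, aligner or IDR cutoff. Column 7 holds the authors' signal, a score of unstated scale used only for ranks within a list. Column 9 holds the deposited −log10 q value, and column 10 the summit offset. No region exceeded a chromosome end of WBcel235 (RefSeq sequence, Ensembl release 115 genes), all 33 coding transcripts of the 9 genes began with ATG in it, and no region was identical in both replicates. Ranks, positions and motifs were computed with Python 3.11.15, pandas 2.3.3 and pysam 0.24.0, and exact binomial (Clopper-Pearson) 95% intervals, for counting error only, with SciPy 1.17.1. Position classes were tested on simulated summits. The genes named are the 9, every pathway gene with an IDR peak, and neighbouring genes that locate a summit (the nearest protein-coding 5′ end or a noncoding gene within 200 bp). The genes, lists and motifs were chosen with earlier results of these data known. No test between groups was possible with 1 group. Alternatives covered the list, window, assignment and matching distance.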

Additional observations from a re-analysis of the deposited data

How the results depend on the processing

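The count of 4 genes with an IDR peak stayed at 4 with 2000 bp upstream, with the reach ended at the next protein-coding gene and with assignment to the nearest 5′ end, by which the stronger daf-16 peak goes to gpx-8. It was 0 among the 462 strongest IDR peaks, and 2 to 3 with the 924 strongest regions of 1 replicate. The promoter count of 0 became 1 with 2000 bp upstream to 500 bp downstream and stayed at 0 in the other 5 alternatives, from 0 to 0 with single replicates. The count of IDR peaks found in both replicates, 0, stayed at 0 within 50 bp and by overlap of 1 bp, and was 5 with the 5000 strongest regions of each. The 6 genes with a region among the 5000 strongest pooled became 4 with 2000 and 8 with 10000 regions, and 6 to 7 with 1 replicate. The 15 pathway genes became 8 among the 462 strongest IDR peaks, 14 to 15 with 1 replicate, and 13 to 15 otherwise. A shorter and a longer list change the count by their construction. Other causes were not tested. No paired analysis was possible because there is 1 group. Depth is unknown, so no limit from it can be given.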

Other observations

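The motifs searched at the 9 genes were also counted at the 24 IDR summits of the other pathway genes. CACGTG lay within 50 bp of 5 of these summits (20.8%), namely the upstream mxl-3 peak, mdl-1 peaks 663 bp downstream and 85 bp upstream of its 5′ end, and the peaks of daf-14 and of tps-2 at 2325 bp upstream, where 5.95% of all IDR summits held it. GAGAGA lay at 13 of the 24 (54.2%), where 27.6% of all IDR summits held it. In aakg-1 the summit of rank 726 lay in a long run of overlapping copies. Neither GTAAACA nor CTTATCA was found at any of the 24, and both were rare among all IDR summits (1.52% and 0.325%). These counts were made after the peaks were seen and were not tested.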
